A study of Mus musculus with 15 samples.

Results

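Mammospheres treated with DAPT were set against mammospheres treated with PP2, so that inhibition of Notch was compared directly with inhibition of Src. The comparison held 6 of the 15 arrays of the study, 3 for DAPT and 3 for PP2, chosen by the treatment named in their titles. Mammospheres are balls of cells that grow without attaching to a dish. These were grown from primary mammary tumor cells of MMTV-PyMT mice on the FVB/N background. In such mice the mouse mammary tumour virus promoter, which is active mainly in mammary epithelium, drives the polyoma middle T oncogene, and this oncogene and strain were shared by every group. Medium without serum held EGF, FGF and B27. DAPT or PP2 was added on day 10 and left for 2 days, and RNA was taken after 12 days in all. The 3 vehicle arrays, from spheres of the same age that received vehicle, serve to show where spheres without an inhibitor lay. Each group's 3 samples are named biological replicates, with no word on whether the mice or the cultures were separate, so the p-values cover only how much these samples varied. The doses of DAPT and PP2 are not given in the labels used here.

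DAPT blocks γ-secretase, the protease that cuts Notch receptors in the membrane once a ligand on a neighbouring cell has bound them. The freed intracellular part of Notch enters the nucleus, joins RBPJ and switches on targets such as the repressors of the Hes and Hey families. In the mammary gland Notch signalling is known for favouring luminal over basal cell fate. PP2 blocks the kinases of the Src family, which sit under the plasma membrane and pass signals from growth factor receptors and integrins to the Ras and ERK pathway, the cytoskeleton and cell adhesions. Polyoma middle T works in part by binding and activating Src family kinases.

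Each array gave 1 signal per probe set, a group of probes for a transcript, and all values below are log2 of that signal. Each gene was represented by 1 probe set, and a gene was tested if its signal lay above the median of the array on at least 3 of the 15 arrays. Differences are DAPT minus PP2, so a positive log2 fold change is a higher level under DAPT. They come from a limma fit over all 15 arrays, and a gene was called at an adjusted p of 0.05 (Benjamini-Hochberg over 11465 genes). A gene with all 3 arrays of a group below the median is dim in that group, and its fold is printed as "at least", with each dim array held at the higher of its own median and its measured value.

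Of the 11465 genes tested, 4548 (39.7%) were called between DAPT and PP2. Higher under DAPT were 2491 genes (21.7%), and 2057 genes (17.9%) were lower. At least 2-fold higher were 352 genes (3.07%), and 284 (2.48%) were at least 2-fold lower. The share of called genes that were higher was 54.8%, but 69.5% when arrays were centred on their medians, a setting that moved the median gene by 0.09 on the log2 scale. These percentages are the background against which the counts of the gene groups below are to be read. The 3 DAPT and 3 PP2 arrays did not overlap for 50.8% of genes tested. Against vehicle, in the same fit, 34.3% of genes were called for DAPT (16.8% higher, 17.5% lower) and 52.7% for PP2 (25.8% higher, 26.9% lower). Counts against vehicle below are to be read beside these shares, and both contrasts share the vehicle arrays.

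Replicate arrays of a treatment were closer to each other than to arrays of the other treatment. Between 2 arrays the typical gene differed, as a median absolute log2 difference, by 0.182 to 0.196 within DAPT, 0.187 to 0.220 within PP2 and 0.334 to 0.402 between a DAPT and a PP2 array. Most luminal and basal markers lay above the median, with 16 of 21 luminal and 17 of 22 basal markers on all DAPT arrays. On all PP2 arrays these counts were 17 and 16. The median is a lenient cut, since 11465 of 18193 genes passed the filter for testing, which also uses it. The share of all genes above the median on all arrays of a treatment was not counted. The epithelial counts are therefore to be read beside those of the other cell types that follow. Markers of fibroblasts (0 of 12) and adipocytes (0 of 7) were above the median on all arrays of neither treatment. Of 16 macrophage markers 3 were in each treatment, namely Cd14 and Laptm5 in both, with Csf1r under DAPT and Adgre1 under PP2. Of 9 lymphocyte markers 1, Cd8a, was in both, and of 11 endothelial markers 1, Egfl7, was under DAPT and 0 under PP2. Col1a1, Pdgfrb, C1qa and Ptprc lay below the median on all arrays of both. The 3′ to 5′ ratio of the actin control probe sets, which is higher where RNA is shorter, was 1.35 ± 0.07 in DAPT, 1.57 ± 0.04 in PP2 and 1.42 ± 0.06 in vehicle arrays (SD, n = 3 each). DAPT and PP2 arrays did not overlap in this ratio. They did overlap in the same ratio of the GAPDH control probe sets, which was 0.80 ± 0.05 in DAPT and 0.83 ± 0.02 in PP2 arrays. The part of RNA length in the differences below was not tested. The arrays of a treatment were numbered consecutively, so an effect of this order and the treatment cannot be told apart. In bulk RNA, fewer cells of a type and less RNA per cell cannot be told apart either.

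The greatest rises under DAPT relative to PP2 were of genes for a secreted metabolic factor, the matrix and keratins. Angptl4, a secreted inhibitor of lipoprotein lipase, had log2 signals of 10.76, 10.68 and 10.71 under DAPT, against 4.87, 4.09 and 5.30 under PP2 and 9.61, 9.77 and 9.78 in vehicle. It was dim under PP2 alone and at least 19.7-fold higher under DAPT (adjusted p = 1.33e-12). Postn, the matrix protein periostin, had 13.83, 13.77 and 13.77 under DAPT, against 8.26, 8.77 and 8.52 under PP2 and 13.86, 13.80 and 13.77 in vehicle. DAPT and vehicle arrays lay together here, and PP2 arrays stood far below both. Its log2 fold change was 5.28 (SE 0.09, adjusted p = 2.68e-16), which is 38.8-fold. Krt15, a keratin of basal epithelial cells, showed another order, with 11.87, 11.79 and 11.78 under DAPT, 7.37, 7.50 and 7.48 under PP2 and 7.87, 7.83 and 7.82 in vehicle. Here the DAPT arrays stood apart and PP2 lay near vehicle. The log2 fold change was 4.37 (SE 0.45, adjusted p = 8.56e-07), and the SE pools the spread of all 5 treatments.

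The other 9 of the 12 largest rises were of smaller size or rested on a dim group. Krt79, a keratin, averaged 11.98 ± 0.06 under DAPT and 8.83 ± 0.19 under PP2 (SD, n = 3 each; log2 fold change 3.15, adjusted p = 1.33e-12). Fgfbp1, a carrier protein that releases FGFs from the matrix, was at least 6.75-fold higher and dim under PP2 (adjusted p = 2.77e-11). Among the rest that were dim under PP2, Pou2af1, a coactivator of B-cell transcription, was at least 3.29-fold higher, the neuronal immediate early gene Arc at least 2.43-fold and Dmp1, a matrix protein of bone, at least 2.00-fold. For Pou2af1 and Arc, DAPT did not pass against vehicle (adjusted p = 0.997 and 0.622) and PP2 was lower. Dmp1 averaged 7.41 under DAPT, 3.48 under PP2 and 10.27 in vehicle, so it was below vehicle in both treatments. M1ap, AF067061 and 1700019D03Rik were at least 1.47-fold, 3.26-fold and 5.43-fold higher, while the remaining gene, Cav1, belongs to the regulators of Src described below.

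The greatest falls were of a secreted plasma protein and of caseins. Hp, haptoglobin, which binds free haemoglobin, had 3.58, 5.56 and 5.44 under DAPT, against 11.13, 10.93 and 10.98 under PP2 and 8.10, 7.92 and 8.02 in vehicle. The 3 groups were apart, with vehicle in between, and Hp was at least 25.7-fold lower under DAPT, where it was dim (adjusted p = 6.47e-10). Slc43a3, a transporter of purine bases, had 6.66, 6.71 and 6.44 under DAPT, against 10.38, 10.36 and 10.54 under PP2 and 8.02, 8.19 and 8.20 in vehicle. Its order was the same as that of Hp, with a log2 fold change of −3.82 (SE 0.12, adjusted p = 4.65e-13). Tnfaip2, a gene induced by TNF, had 6.23, 5.81 and 6.09 under DAPT, against 9.84, 9.71 and 9.90 under PP2 and 10.41, 10.63 and 10.37 in vehicle. In this case PP2 lay closer to vehicle, and the gene was at least 11.2-fold lower under DAPT (adjusted p = 2.39e-13). Prelp, a matrix proteoglycan, was at least 9.01-fold lower under DAPT (adjusted p = 2.34e-11), since it had 6.28, 5.92 and 6.18 there, against 9.56, 9.42 and 9.50 under PP2 and 6.10, 6.25 and 6.29 in vehicle. Ramp3, a receptor partner for adrenomedullin, was at least 4.84-fold lower, the sugar transporter Slc2a6 at least 4.55-fold, the muscle protein Pdlim3 at least 3.41-fold, Armcx4 at least 2.31-fold, Cdhr2 at least 1.42-fold and the neuropeptide gene Tac1 at least 1.39-fold, all dim under DAPT.

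**Figure D1:**
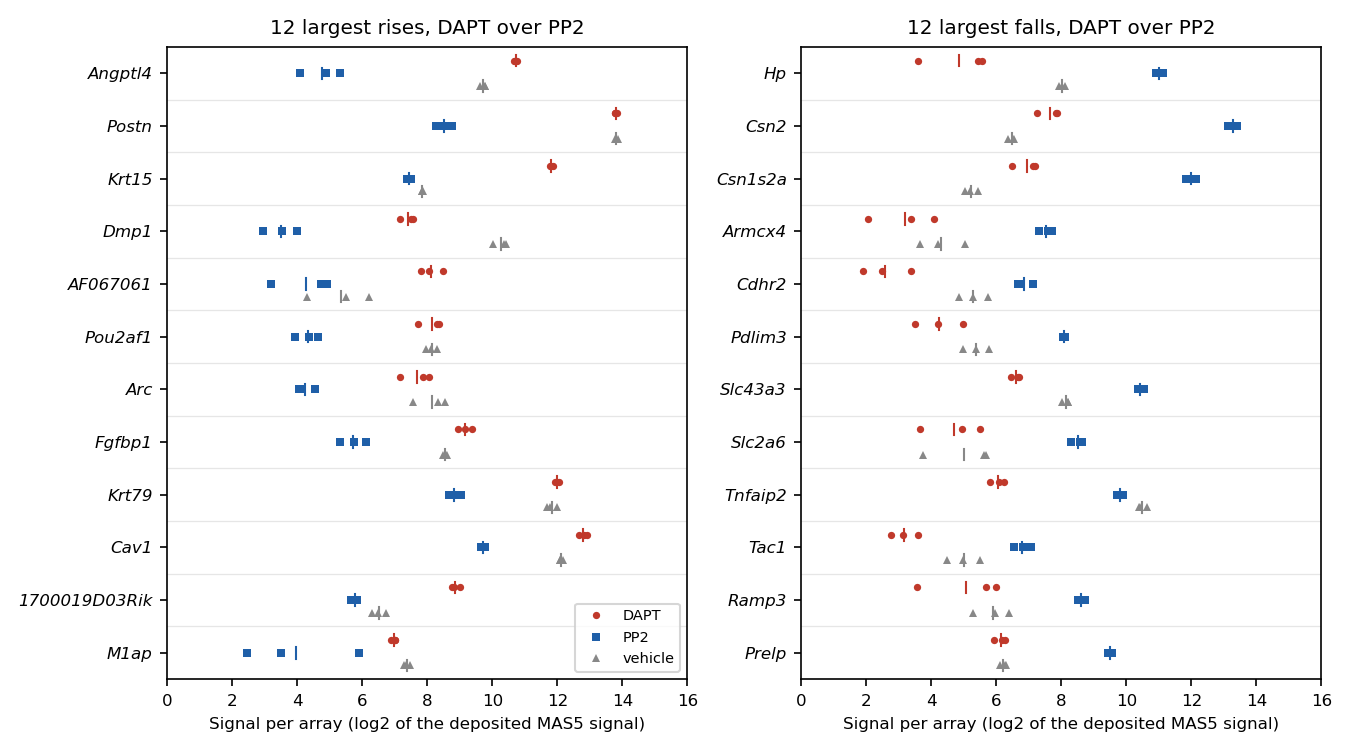
Signal of the 12 largest rises (left) and 12 largest falls (right) of DAPT over PP2, as log2 of the deposited signal on each array; points are the 3 arrays of DAPT (red circles), PP2 (blue squares) and vehicle (grey triangles), and the short bars are means. Postn under DAPT (mean 13.79) lay with vehicle (13.81) and PP2 (8.52) stood apart, whereas Krt15 under PP2 (7.45) lay near vehicle (7.84) and DAPT (11.81) stood apart.

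Of 18 genes of milk proteins and alveolar secretion tested, 10 were lower, 2 were higher and 6 did not pass, and the median log2 fold change was −0.65 (−0.59 where 2 dim members were held at their bound), against 0.00 over all genes tested. Csn2 encodes β-casein, a main protein of milk. Its log2 signals were 7.83, 7.26 and 7.87 under DAPT, against 13.31, 13.13 and 13.39 under PP2 and 6.54, 6.51 and 6.37 in vehicle. PP2 arrays stood far above both other groups, with a log2 fold change of −5.62 (SE 0.18, adjusted p = 1.03e-12), or 49.2-fold lower under DAPT. Csn1s2a, another casein, had 7.18, 6.49 and 7.14 under DAPT, against 12.15, 11.84 and 12.00 under PP2 and 5.03, 5.44 and 5.20 in vehicle (log2 fold change −5.06, SE 0.66, adjusted p = 1.3e-05). Csn1s1, αS1-casein, had 11.62, 11.40 and 11.60 under DAPT, against 14.76, 14.85 and 14.78 under PP2 and 12.39, 12.40 and 12.49 in vehicle. For Csn1s1 the DAPT arrays lay below vehicle (log2 fold change −0.89, adjusted p = 1.63e-06) and the PP2 arrays above it (2.37, adjusted p = 4.59e-12), which gave −3.26 between DAPT and PP2 (SE 0.09, adjusted p = 2.88e-13).

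For 2 other milk genes vehicle was the lowest group. Btn1a1, butyrophilin, a protein of the milk fat globule membrane, averaged 9.40 ± 0.07 under DAPT, 10.93 ± 0.11 under PP2 and 8.28 in vehicle (log2 fold change −1.53, adjusted p = 7.15e-10). Folr1, a folate receptor, averaged 8.94 ± 0.27 under DAPT, 10.55 ± 0.09 under PP2 and 8.10 in vehicle (−1.61, adjusted p = 4.45e-08; SD, n = 3 each). Both were above vehicle under each inhibitor. Over the 18 milk genes the median against vehicle was 0.58 for DAPT and 1.15 for PP2, with 8 and 11 members higher than vehicle (16.8% and 25.8% of all genes). Without DAPT replicate 3, 1 milk gene was higher and 9 were lower between DAPT and PP2. Among 15 genes of the prolactin and STAT5 pathway, which drives casein transcription, 3 were higher, 6 were lower and 6 did not pass. With median centring 2 members were lower, and without DAPT replicate 1 there were 3. Socs3, a feedback inhibitor of this pathway, averaged 12.47 ± 0.11 under DAPT, 10.97 ± 0.15 under PP2 and 11.45 in vehicle (log2 fold change 1.498, adjusted p = 1.8e-09). The epithelial ETS factor Ehf (−0.82, adjusted p = 3.66e-08) and the growth hormone receptor Ghr (−0.69, adjusted p = 1.39e-07) were lower under DAPT.

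The promoters of the casein genes Csn2 and Csn1s1 are printed because these are the main casein genes described above, and both lie on chromosome 5. The sequences run from 250 bases before to 50 bases after the start of the gene, are taken from RefSeq (GRCm38.p6) and are written 5′ to 3′ on the strand of the gene. Capitals mark TTCNNNGAA, the core of the site that STAT proteins bind, searched on both strands.
Csn2, chr5:87699376-87699675, minus strand: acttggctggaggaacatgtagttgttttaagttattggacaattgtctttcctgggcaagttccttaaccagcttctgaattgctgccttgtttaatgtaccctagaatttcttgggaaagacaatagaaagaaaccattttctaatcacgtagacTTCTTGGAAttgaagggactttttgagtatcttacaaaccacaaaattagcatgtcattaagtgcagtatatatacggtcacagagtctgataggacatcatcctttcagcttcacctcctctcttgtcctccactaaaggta
Csn1s1, chr5:87665958-87666257, plus strand: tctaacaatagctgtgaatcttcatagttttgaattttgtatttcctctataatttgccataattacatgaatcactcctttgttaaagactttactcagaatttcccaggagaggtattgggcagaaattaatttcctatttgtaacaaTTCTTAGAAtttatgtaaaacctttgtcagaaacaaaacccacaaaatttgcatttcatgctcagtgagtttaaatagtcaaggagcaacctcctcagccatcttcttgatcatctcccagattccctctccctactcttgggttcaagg
The motif stood 93 bases before the start in Csn2, as TTCTTGGAA, and 100 bases before it in Csn1s1, as TTCTTAGAA. It was found in 3 of 13 milk gene promoters with an entry (23.1%) and in 8.5% of 27025 promoters, 1 per gene. A match to letters is a description and does not show that a factor was bound.

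Of 19 luminal markers tested, 2 were higher, 11 were lower and 6 did not pass (median −0.31, −0.27 where 2 dim members were held at their bound and −0.20 with quantile normalization). With median centring 7 were lower. The summed signal of 21 luminal markers was 111230 to 113965 under DAPT, 136710 to 142237 under PP2 and 114783 to 118325 in vehicle. Against vehicle, 5 luminal markers were higher and 6 lower under DAPT, and 6 were higher and 3 lower under PP2. Of all genes, 16.8% were higher and 17.5% lower under DAPT, and 25.8% and 26.9% under PP2. Kit, a receptor kinase of luminal progenitors, had 12.01, 12.11 and 12.18 under DAPT, against 13.22, 13.35 and 13.25 under PP2 and 11.48, 11.54 and 11.54 in vehicle (log2 fold change −1.17, SE 0.05, adjusted p = 2.83e-11). Both treatments lay above vehicle, PP2 further. Aldh1a3, an enzyme of retinoic acid synthesis used as a progenitor marker, had 5.43, 6.14 and 6.06 under DAPT, against 8.32, 8.46 and 8.74 under PP2 and 7.95, 8.40 and 7.98 in vehicle, and was at least 4.54-fold lower under DAPT, where it was dim (adjusted p = 3.02e-08). The tight junction protein Cldn3 averaged 12.24 ± 0.05 under DAPT and 13.18 ± 0.03 under PP2 (−0.94, adjusted p = 8.34e-08). Prom1, the surface protein CD133, was one of the 2 that were higher, with 9.07 ± 0.09 under DAPT and 7.81 ± 0.04 under PP2 (SD, n = 3 each; 1.25, adjusted p = 2.93e-09), and Wfdc2 was the other (0.67, adjusted p = 4.73e-07).

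Most of the basal and myoepithelial markers tested were higher under DAPT. Of 18 tested, 12 were higher, 0 were lower and 6 did not pass (median 0.98, but 0.59 with a pseudocount of 64 signal units and 0.55 with no filter on dim genes), against 21.7% higher and 17.9% lower over all genes. Here, and in the cholesterol, replication and mitosis groups below, 0 members were lower in limma even at an unadjusted p under 0.05. With probe sets ending in _x_at or _s_at set aside, 1 basal marker was lower. Not every member rose, since Acta2 averaged 6.79 under DAPT and 7.17 under PP2, and the basal keratin Krt14 13.36 and 13.26. The contractile genes Myh11, Cnn1 and Tagln were dim in both treatments. Krt5, the keratin that defines the basal layer, had 10.27, 10.34 and 10.55 under DAPT, against 8.13, 8.37 and 8.21 under PP2 and 9.52, 9.46 and 9.35 in vehicle. Vehicle lay between the treatments, and the log2 fold change was 2.15 (SE 0.09, adjusted p = 9.04e-12). Oxtr, the oxytocin receptor of the contractile myoepithelium, had 11.45, 11.38 and 11.49 under DAPT, against 9.41, 9.39 and 9.35 under PP2 and 8.95, 8.95 and 9.03 in vehicle (2.06, SE 0.07, adjusted p = 1.03e-12). DAPT arrays stood far above both other groups for Oxtr, as they did for Krt15. Mylk, the kinase of myosin light chain, averaged 10.26 ± 0.04 under DAPT, 8.35 ± 0.07 under PP2 and 8.93 in vehicle (1.91, adjusted p = 1.28e-11). Sparc, a matrix protein listed with both the basal markers and the matrix, averaged 12.46 ± 0.12, 10.10 ± 0.12 and 11.72 in the same order (2.36, adjusted p = 1.33e-12). The summed signal of 22 basal markers was 59865 to 60191 under DAPT, 34802 to 37319 under PP2 and 40456 to 41629 in vehicle. Against vehicle, 12 basal markers were higher and 1 lower under DAPT, and 4 were higher and 9 lower under PP2. The shares of all genes were 16.8% higher and 17.5% lower under DAPT, and 25.8% and 26.9% under PP2.

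**Figure D2:**
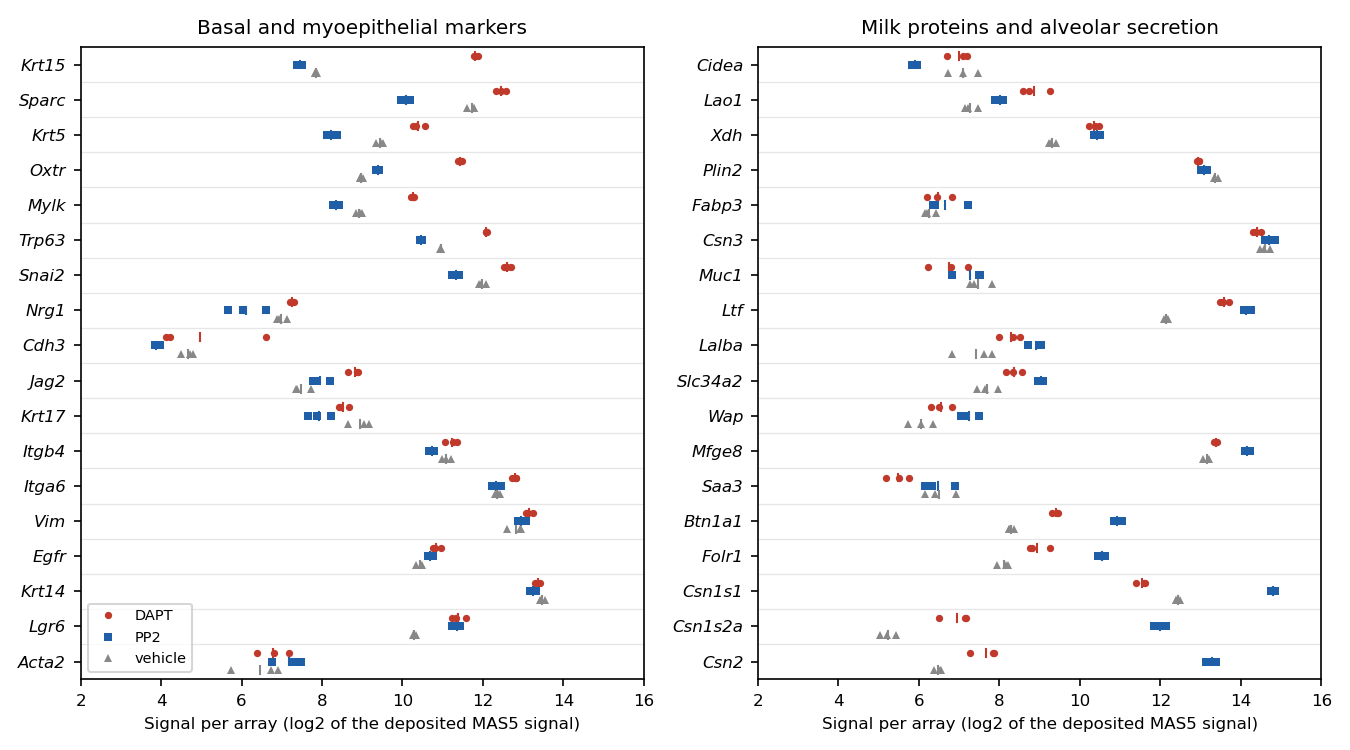
Signal of all tested basal and myoepithelial markers (left) and milk genes (right) on each array, as log2 of the deposited signal, ordered by the log2 fold change of DAPT over PP2; points are the 3 arrays of DAPT (red circles), PP2 (blue squares) and vehicle (grey triangles), bars are means. Krt15 (DAPT mean 11.81, PP2 7.45) and Csn2 (DAPT 7.66, PP2 13.28) lie at the opposite ends.

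Of 17 targets of SRF and the actin cytoskeleton, 10 were higher and 2 lower (median 0.32), and 1 was lower with median centring, with no intensity trend in the variance, or without DAPT replicate 1, DAPT replicate 3 or PP2 replicate 1. Tpm2, a tropomyosin, averaged 12.37 ± 0.04 under DAPT, 10.90 ± 0.15 under PP2 and 11.79 in vehicle (SD, n = 3; log2 fold change 1.47, adjusted p = 3.45e-10). Calponin 2, Cnn2, had 1.37 (adjusted p = 2.09e-11), and Myl9, a myosin light chain that was dim under PP2, was at least 1.51-fold higher (adjusted p = 0.00243). Of 21 targets of YAP and TEAD, the effectors of the Hippo pathway, 9 were higher and 6 lower, or 3 lower with median centring or the mean over all probe sets of a gene. The matrix-associated proteins Ccn2 (13.39, 13.42 and 13.31 under DAPT, 11.80, 11.96 and 11.90 under PP2, 12.82, 12.84 and 12.71 in vehicle) and Ccn1 led them, with log2 fold changes of 1.49 (adjusted p = 1.63e-11) and 1.15 (adjusted p = 1.37e-06). For Ccn2 vehicle lay between the treatments with no overlap.

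Genes of the extracellular matrix were higher under DAPT in 16 of 22 cases, and 1 was lower (median 1.08, and 0.96 where Fbln2, dim under PP2, was held at its bound). The median was 0.71 with the mean over all probe sets of a gene and 0.47 with no filter on dim genes, which added 11 dim genes. The lower one, the basement membrane collagen Col4a1 (−0.27, adjusted p = 0.0134), lies outside the naming rule and is given because it was alone. It did not pass with median centring, without DAPT replicate 2 or without PP2 replicate 2. Apart from Postn and Sparc, Col18a1, a basement membrane collagen, had 10.55, 10.51 and 10.56 under DAPT, against 8.78, 8.52 and 8.57 under PP2 and 10.48, 10.57 and 10.75 in vehicle (log2 fold change 1.92, SE 0.08, adjusted p = 1.63e-11). DAPT arrays lay with vehicle and PP2 arrays below. Fbln2, fibulin 2, was at least 1.79-fold higher and dim under PP2 (adjusted p = 8.77e-05). Col5a2, a fibrillar collagen, was called higher too (adjusted p = 2.22e-05), with 6.35 ± 0.06 under DAPT, close to the array medians. It was dim under PP2 (4.62 ± 0.56), and with the PP2 arrays held at their medians no rise remained. No bound is given for its fold, and the median of 0.96 used its measured change. Against vehicle the median over the matrix genes was 0.18 for DAPT and −0.50 for PP2, and 14 of the 22 were lower than vehicle under PP2, where 26.9% of all genes were lower. Fibroblast markers were at or near background, as given above.

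Among 20 proteases and their inhibitors 9 were higher and 6 were lower (3 with median centring), and 4 members were dim in both treatments. Measured log2 fold changes, dim members included, ran from −1.43 to 3.27. The protease Klk7 was called higher, but not without DAPT replicate 1 (adjusted p = 0.0517). Adam12, a membrane metalloprotease that sheds growth factors, averaged 8.32 ± 0.13 under DAPT, 6.19 ± 0.18 under PP2 and 9.36 in vehicle (log2 fold change 2.13, adjusted p = 4.3e-11). Pappa, which frees insulin-like growth factors from their binding proteins, had 9.32, 10.10 and 9.74 under DAPT, against 7.96, 7.67 and 7.93 under PP2 and 7.59, 7.32 and 7.07 in vehicle (1.87, SE 0.16, adjusted p = 1.08e-07). The secreted Adamts1 had 1.83 (adjusted p = 1.18e-09). Vehicle was the highest group for Adam12 and the lowest for Pappa.

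Outputs of the ERK pathway were higher under DAPT. Of 19 genes of ERK feedback and ETS factors, 16 were higher, 1 was lower and 2 did not pass (median 1.12, and 1.01 where 2 dim members were held at their bound). With the mean over all probe sets of a gene the median was 0.71, with 13 of 17 higher. Dusp6, a phosphatase that ERK induces and that switches ERK off, had 12.90, 12.77 and 12.79 under DAPT, against 11.11, 11.17 and 11.14 under PP2 and 13.06, 13.02 and 13.13 in vehicle. DAPT lay 0.25 below vehicle and PP2 1.93 below it, and the log2 fold change between them was 1.68 (SE 0.06, adjusted p = 1.74e-12). Etv5, an ETS factor downstream of ERK, had 11.24, 11.24 and 11.69 under DAPT, against 9.37, 9.28 and 9.49 under PP2 and 11.92, 12.06 and 11.54 in vehicle (2.01, SE 0.16, adjusted p = 5.21e-08). Spry4, a feedback inhibitor of receptor signalling, was dim under PP2 and at least 2.86-fold higher under DAPT (adjusted p = 5.38e-07). Under PP2 18 of the 19 were lower than vehicle, and under DAPT 8 were lower and 2 higher, where 17.5% of all genes were lower.

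Of 12 ERBB receptors and ligands 6 were higher and 2 were lower (median 0.57). With the mean over all probe sets of a gene the median was 0.28, 5 were higher and 0 were lower in limma, with 1 lower at an unadjusted p under 0.05. With median centring limma called 0 lower, also at an unadjusted p under 0.05, and with the 6 arrays alone or without DAPT replicate 1, DAPT replicate 2 or PP2 replicate 1 there was 1. Hbegf, a ligand of the EGF receptor, had 9.07, 9.02 and 8.97 under DAPT, against 7.28, 7.30 and 6.73 under PP2 and 9.46, 9.41 and 9.52 in vehicle (log2 fold change 1.91, adjusted p = 1.93e-09). Epgn and Ereg are ligands too. Epgn averaged 9.52 ± 0.13 under DAPT and 7.93 ± 0.06 under PP2 (1.59, adjusted p = 2.52e-09), and Ereg 7.83 ± 0.06 and 6.40 ± 0.28 (1.44, adjusted p = 6.46e-07; SD, n = 3 each). Errfi1, an inhibitor of these receptors, was also higher (1.198, adjusted p = 4.81e-10). Of 20 immediate early genes 10 were higher and 4 lower, or 2 lower with median centring. Fos, a subunit of AP-1, had 11.52, 11.54 and 11.47 under DAPT, against 9.54, 9.70 and 9.48 under PP2 and 11.66, 11.58 and 11.47 in vehicle (1.94, SE 0.08, adjusted p = 8.52e-12). Egr1, a zinc finger factor induced by growth factors, averaged 13.19 ± 0.06 under DAPT, 11.82 ± 0.06 under PP2 and 13.18 in vehicle (1.38, adjusted p = 3.78e-09). For both genes DAPT overlapped vehicle and PP2 was lower.

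Targets of Notch were divided between the directions. Of 17 tested, 5 were higher, 9 were lower and 3 did not pass (median −0.35). Hey1, a repressor that Notch induces, had 11.06, 10.94 and 11.02 under DAPT, against 12.25, 12.32 and 12.32 under PP2 and 12.22, 12.05 and 12.33 in vehicle. PP2 arrays lay within the range of vehicle and DAPT arrays below both (log2 fold change −1.29, SE 0.06, adjusted p = 1.51e-10). Hes1, the related repressor, had 9.31, 9.11 and 9.25 under DAPT, against 10.23, 10.35 and 10.08 under PP2 and 10.37, 10.39 and 10.68 in vehicle (−0.998, SE 0.09, adjusted p = 2.92e-07). PP2 arrays were slightly under vehicle, by −0.26 (adjusted p = 0.0286), where DAPT had −1.26 (adjusted p = 2.6e-08). Nrarp, a target that feeds back on Notch, had 6.01, 6.75 and 6.47 under DAPT, against 7.05, 7.89 and 7.65 under PP2 and 9.09, 9.00 and 9.34 in vehicle. It was below vehicle in both treatments, and lower in DAPT than in PP2 by −1.12 (SE 0.20, adjusted p = 0.000289). Its other probe set gave −0.11, and the mean of both did not pass (−0.61, adjusted p = 0.0593).

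For other Notch targets PP2 was the highest group. Id3, an inhibitor of helix-loop-helix factors, averaged 7.70 ± 0.14 under DAPT, 9.15 ± 0.09 under PP2 and 7.93 in vehicle (log2 fold change −1.45, adjusted p = 3.57e-09). The luminal factor Gata3 averaged 11.60 ± 0.08 under DAPT, 12.25 ± 0.02 under PP2 and 11.01 in vehicle (−0.65, adjusted p = 2.07e-08), and Hes6 10.66 ± 0.10, 11.31 ± 0.05 and 10.33 (−0.65, adjusted p = 3.62e-07). Both were above vehicle in each treatment, PP2 further. Bcl2 (−0.44), Notch3 (−0.41) and Sox9 (−0.35) were lower by less, and Sox9 did not pass with median centring (adjusted p = 0.0516) and turned to 0.12 with the mean over all its probe sets.

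The 5 Notch targets called higher under DAPT were Myc, Ccnd1, Snai2, Jag1 and Cdkn1a. Myc, a driver of growth, had 11.39, 11.30 and 11.22 under DAPT, against 10.09, 10.17 and 10.09 under PP2 and 11.35, 11.32 and 11.42 in vehicle (log2 fold change 1.19, SE 0.06, adjusted p = 2.07e-10). Ccnd1, cyclin D1, averaged 13.26 ± 0.02 under DAPT, 12.53 ± 0.12 under PP2 and 13.77 in vehicle (0.73, adjusted p = 3.87e-08). Snai2, a transcription factor of basal cells, averaged 12.61 ± 0.09, 11.32 ± 0.09 and 11.97 in the same order (1.29, adjusted p = 4.48e-11). Jag1, itself a Notch ligand, had 10.45, 10.42 and 10.44 under DAPT, against 9.26, 9.23 and 9.36 under PP2 and 11.59, 11.69 and 11.45 in vehicle (1.15, SE 0.06, adjusted p = 4.99e-10). It was below vehicle in both treatments, by −1.14 under DAPT and −2.29 under PP2. Cdkn1a, a cell cycle inhibitor, was higher by 0.22 and did not pass without DAPT replicate 3 (adjusted p = 0.0543). The 3 that did not pass were Nrp1 (0.36), Dtx1 (0.34) and Heyl (0.04).

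Of 21 Notch receptors, ligands and modifiers 8 were higher, 6 were lower and 7 did not pass, and 4 were higher without PP2 replicate 1. Among receptors, Notch1 had 11.37, 11.31 and 11.39 under DAPT, against 11.99, 12.10 and 12.06 under PP2 and 11.39, 11.35 and 11.56 in vehicle (log2 fold change −0.69, adjusted p = 7.69e-07). DAPT overlapped vehicle and PP2 was higher. Notch2 (0.05) and Notch4 (0.07, dim in both) did not pass. Among ligands, Jag2 had 0.86 (adjusted p = 0.00039) and Dll1 0.47 (adjusted p = 1.76e-05). Among modifiers, Lfng, a glycosyltransferase that tunes which ligand Notch answers to, was dim under PP2 and at least 1.41-fold higher (adjusted p = 0.00323). The Notch inhibitor Numbl rose by 0.72 (adjusted p = 0.00818), but not without PP2 replicate 1 (adjusted p = 0.0508). Dtx4, a ubiquitin ligase of the Deltex family, averaged 7.78 ± 0.11 under DAPT, 9.14 ± 0.09 under PP2 and 7.68 in vehicle (−1.36, adjusted p = 7.17e-07). The ligase Dtx3 had −0.55, Itch −0.51 (adjusted p = 1.63e-05) and the glycosyltransferase Rfng −0.31, which did not pass with median centring (adjusted p = 0.0653).

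The remaining 3 called modifiers changed little, and their calls were not stable. They were the shedding proteases Adam10 (0.30) and Adam17 (0.21) and the DNA-binding partner of Notch, Rbpj (0.16). Adam10 did not pass without DAPT replicate 2 or 3 or any one PP2 replicate (adjusted p = 0.0548 to 0.109), and it turned to −0.13 with the mean over all its probe sets. For Adam17 the call ended without DAPT replicate 1 (adjusted p = 0.0811) or PP2 replicate 1 (adjusted p = 0.0594). Rbpj did not pass without DAPT replicate 1 or 2 or PP2 replicate 1 or 3 (adjusted p = 0.0579 to 0.107). The target of DAPT itself, γ-secretase, had 5 subunits tested, none of which was called, with log2 fold changes of 0.05 for Aph1a, −0.02 for Ncstn, −0.09 for Psenen, −0.14 for Aph1b and −0.29 for Psen2. At an unadjusted p under 0.05 limma gave 1 of the 5, which was lower.

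Src family kinases and their regulators were called higher in 4 of 14 cases and lower in 4, or 3 and 1 with median centring, and 2 were lower with the mean over all probe sets of a gene. Cav1, caveolin 1, a scaffold of membrane pits and a classical Src substrate, had 12.68, 12.92 and 12.81 under DAPT, against 9.72, 9.78 and 9.65 under PP2 and 12.16, 12.07 and 12.09 in vehicle. The 3 groups did not overlap, and the log2 fold change was 3.09 (SE 0.08, adjusted p = 5.82e-14), or 8.51-fold. Pag1, the adaptor that recruits the Src inhibitor Csk to the membrane, had 7.65, 7.64 and 7.42 under DAPT, against 9.07, 9.25 and 9.16 under PP2 and 8.03, 7.88 and 7.80 in vehicle (−1.59, SE 0.10, adjusted p = 1.52e-09). PP2 stood above vehicle and DAPT a little below it. Fyn, a kinase of the family, had 7.98, 8.03 and 8.16 under DAPT, against 7.40, 7.28 and 7.23 under PP2 and 8.53, 8.72 and 8.23 in vehicle (0.75, SE 0.12, adjusted p = 6.62e-05).

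Src itself had 8.74, 8.77 and 9.09 under DAPT, against 9.53, 9.50 and 8.95 under PP2 and 8.75, 8.84 and 8.85 in vehicle. DAPT and PP2 arrays overlapped, and the log2 fold change of −0.46 (adjusted p = 0.0188) did not pass without DAPT replicate 1 or 2 or PP2 replicate 1 or 2 (adjusted p = 0.0686 to 0.0955). The ubiquitin ligase Cblb was higher by 0.37 (adjusted p = 0.000586). The kinase Frk (−0.31) and the phosphatase Ptpn1 (−0.24) were lower, and neither passed with median centring (adjusted p = 0.107 and 0.276). Ptpra, a phosphatase that activates Src, was higher by 0.18 on the probe set used and −0.72 on its other one (−0.27 as their mean), and it did not pass without DAPT replicate 2 or 3 or PP2 replicate 1 or 2 (adjusted p = 0.0526 to 0.0965). Yes1, Fgr, Csk, Cbl, Cblc and Srms did not pass. Of 20 Src substrates and focal adhesion genes 7 were higher and 4 lower, and without DAPT replicate 3 there were 4 of each, while 2 were lower with probe sets ending in _x_at or _s_at set aside. Vcl, vinculin, had 0.82 (adjusted p = 1.54e-10) and Flna, filamin A, 0.80 (adjusted p = 7.93e-08), while Tns4, a tensin of focal adhesions, had −1.19 (adjusted p = 7.36e-07).

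**Figure D3:**
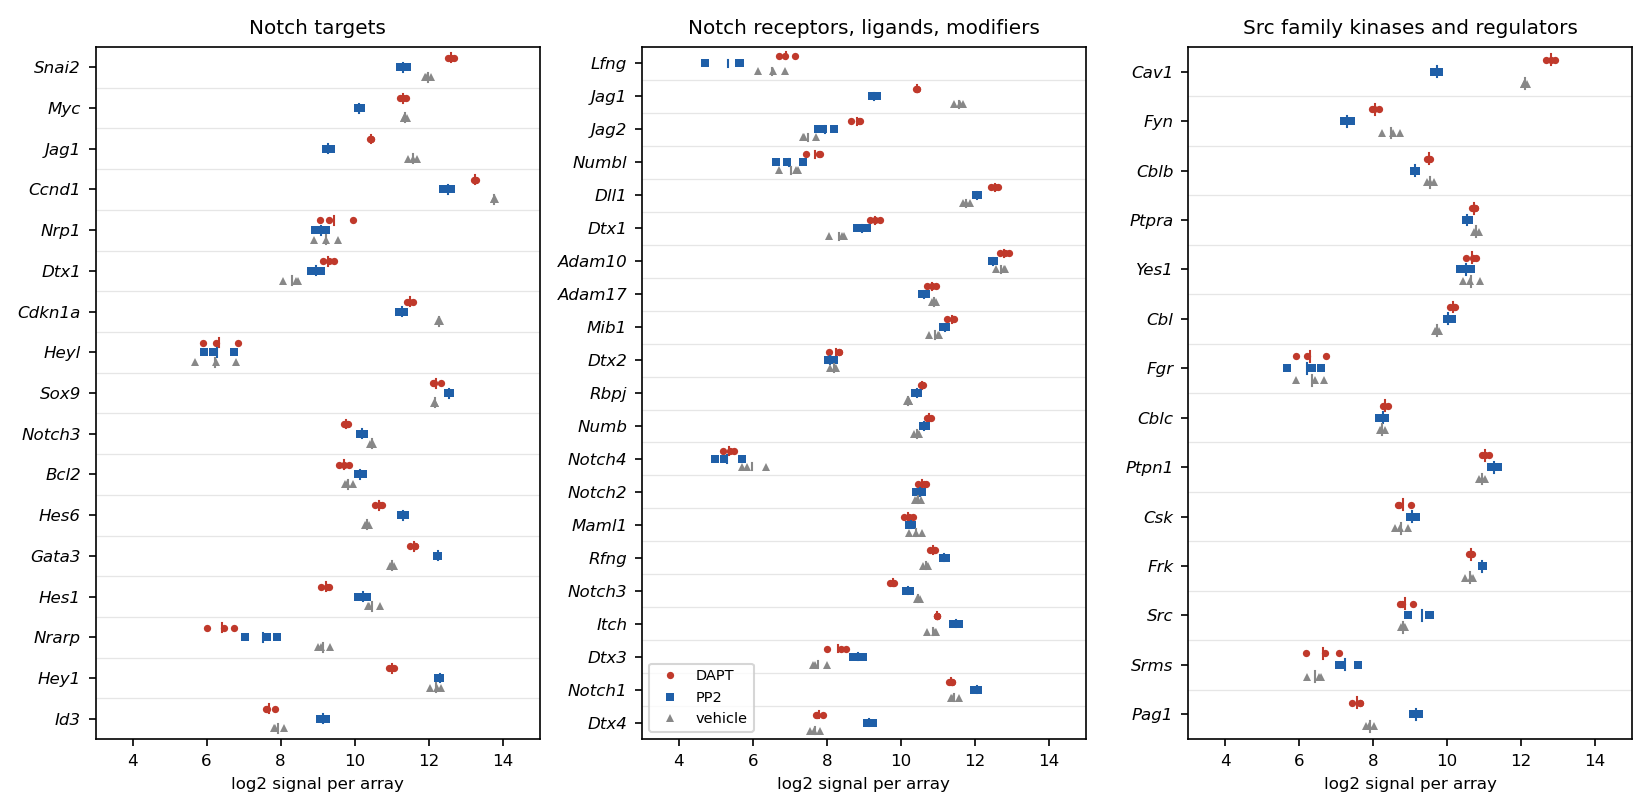
Signal on each array of the tested Notch targets (left), Notch receptors, ligands and modifiers (middle) and Src family kinases with their regulators (right), as log2 of the deposited signal, ordered by log2 fold change of DAPT over PP2; points are the 3 arrays of DAPT (red circles), PP2 (blue squares) and vehicle (grey triangles), bars are means. Hey1 under PP2 (mean 12.30) lay at the level of vehicle (12.20) and DAPT (11.01) below both, whereas for Cav1 it was PP2 (9.72) that stood apart.

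Genes of cell division were higher under DAPT than under PP2 and lower than vehicle under both. Of 29 G2/M and mitosis genes, 28 were higher, 0 were lower and 1 did not pass (median 0.75), against 21.7% higher over all genes. The one that did not pass, named here because it was alone, was Ube2c, a ubiquitin-conjugating enzyme of mitosis (0.19, adjusted p = 0.144). Against vehicle 27 were lower under DAPT (median −0.75) and all 29 under PP2 (median −1.53). Cdc20, which starts the destruction of cyclins at anaphase, had 11.28, 11.21 and 11.14 under DAPT, against 9.89, 10.23 and 10.28 under PP2 and 11.83, 11.82 and 11.84 in vehicle. The 3 groups did not overlap, and the log2 fold change was 1.08 (SE 0.08, adjusted p = 2.7e-08). Hmmr, a protein of the mitotic spindle, had 9.22, 9.06 and 8.98 under DAPT, against 7.88, 8.35 and 8.00 under PP2 and 9.63, 9.67 and 9.87 in vehicle (1.01, SE 0.11, adjusted p = 1.22e-06). The kinesins Kif11 (1.004, adjusted p = 0.000487) and Cenpe (0.95, adjusted p = 2.83e-06) followed. Kif2c, a kinesin that takes microtubules apart, had 0.99, but the mean over its 4 probe sets did not pass (0.45, adjusted p = 0.0505).

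The promoters of Cdc20 and Hmmr are printed for the sequence elements that G2/M genes share. They have the same span and source as those of the caseins. Capitals mark CCAAT (or ATTGG, the same box on the other strand), the box bound by NF-Y, and TTTGAA, the cell cycle homology region through which the DREAM complex holds G2/M genes off. Both motifs were searched on both strands, and the capitals do not overlap.
Cdc20, chr4:118437294-118437593, minus strand: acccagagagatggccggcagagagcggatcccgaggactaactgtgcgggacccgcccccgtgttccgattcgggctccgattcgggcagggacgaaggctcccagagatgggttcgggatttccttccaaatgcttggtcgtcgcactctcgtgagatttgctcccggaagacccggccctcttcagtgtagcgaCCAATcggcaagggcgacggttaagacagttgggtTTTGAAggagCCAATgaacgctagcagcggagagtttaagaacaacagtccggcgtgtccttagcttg
Hmmr, chr11:40733388-40733687, minus strand: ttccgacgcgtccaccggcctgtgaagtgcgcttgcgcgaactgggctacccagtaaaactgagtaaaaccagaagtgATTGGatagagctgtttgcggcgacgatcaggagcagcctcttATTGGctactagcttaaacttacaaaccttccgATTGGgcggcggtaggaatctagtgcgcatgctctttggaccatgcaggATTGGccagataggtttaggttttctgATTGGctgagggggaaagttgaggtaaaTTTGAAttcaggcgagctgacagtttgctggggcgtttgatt
Among the 24 G2/M promoters with an entry, 20 held CCAAT (83.3%, against 37.9% of 27025 promoters), 18 held TTTGAA (75%, against 18.1%) and 17 held both (70.8%, against 7.1%). In the 24 promoters of replication genes, CCAAT was found in 62.5% and TTTGAA in 12.5%. These shares describe the genes of the list and say nothing of binding in these cells.

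Of 28 G1/S and DNA replication genes 21 were higher, 0 were lower and 7 did not pass (median 0.51). Tk1, thymidine kinase, had 10.49, 10.57 and 10.53 under DAPT, against 9.24, 9.26 and 9.30 under PP2 and 10.95, 10.95 and 11.13 in vehicle (log2 fold change 1.26, SE 0.09, adjusted p = 1.57e-08). Ccne2, a cyclin of S-phase entry, had 0.99 (adjusted p = 1.31e-05), and Rrm2, a subunit of ribonucleotide reductase, 0.86 (adjusted p = 3.58e-08). Mcm5, part of the replicative helicase, had 0.98, but the mean over its probe sets did not pass (0.72, adjusted p = 0.0964). Of these 28 genes 16 were below vehicle under DAPT and 25 under PP2. Among 20 G1 cyclins, CDK inhibitors and senescence genes 10 were higher and 4 lower. Ccnd2, cyclin D2, averaged 8.92 ± 0.03 under DAPT, 7.45 ± 0.23 under PP2 and 8.49 in vehicle (1.47, adjusted p = 8.42e-09). The brakes Rb1 (11.31 ± 0.03 under DAPT, 12.26 ± 0.06 under PP2, 11.17 in vehicle) and Cdkn1b (10.87 ± 0.05, 11.62 ± 0.05 and 11.35) were lower under DAPT, by −0.95 (adjusted p = 3.88e-09) and −0.75 (adjusted p = 1.37e-08).

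Of 28 genes of the hypoxia response and glycolysis 19 were higher and 3 lower (median 0.45, and 0.37 where 2 dim members were held at their bound), and with median centring 16 were higher and 1 lower. Egln3, a prolyl hydroxylase that senses oxygen, had 9.77, 9.79 and 9.97 under DAPT, against 7.52, 8.04 and 7.51 under PP2 and 11.40, 11.30 and 11.37 in vehicle (log2 fold change 2.15, SE 0.12, adjusted p = 6.71e-10). Both treatments lay below vehicle and PP2 lay the lowest. Car9, a carbonic anhydrase, had 9.19, 9.48 and 9.52 under DAPT, against 7.59, 7.57 and 7.12 under PP2 and 10.59, 10.55 and 10.52 in vehicle, with the same order (1.97, SE 0.12, adjusted p = 1.72e-09). Collagen hydroxylase P4ha1 had 1.58 (adjusted p = 4.43e-10), and the angiogenic factor Vegfa 1.16 (adjusted p = 5.28e-06). Adm, adrenomedullin, was at least 1.49-fold higher and dim under PP2 (adjusted p = 3.66e-05).

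Of 19 genes of cholesterol synthesis 16 were higher, 0 were lower and 3 did not pass (median 0.41). In limma 0 were lower at an unadjusted p under 0.05 too, but with the mean over all probe sets of a gene 1 was lower. Insig1, which holds back the SREBP factors when sterols suffice, had 10.83, 10.94 and 10.94 under DAPT, against 9.47, 9.58 and 9.62 under PP2 and 10.80, 10.81 and 10.71 in vehicle (log2 fold change 1.34, SE 0.07, adjusted p = 3.23e-10). The enzymes Cyp51 (0.79, adjusted p = 2.21e-08), Msmo1 (0.70, adjusted p = 6.19e-08) and Sqle (0.64, adjusted p = 1.97e-06) had smaller differences. Against vehicle 9 were lower under DAPT and 17 under PP2. The 21 genes of fatty acid and triglyceride synthesis had 4 higher and 5 lower, with the desaturase Fads2 at −1.15 (adjusted p = 4.46e-09). That made 42.9% called, near the 39.7% of all genes tested. Of 19 genes of amino acid transport and synthesis 13 were higher and 2 lower (median 0.60, and 0.46 where 2 dim members were held at their bound). The median was 0.32 with the mean over all probe sets of a gene. Lower members numbered 1 with that mean, with no filter on dim genes, with the replicate number as a block, or when any one of DAPT replicate 3 or the PP2 replicates was left out. Phgdh, the entry enzyme of serine synthesis, averaged 10.68 ± 0.12 under DAPT, 9.09 ± 0.09 under PP2 and 11.03 in vehicle (1.59, adjusted p = 6.69e-11). Next in that pathway, Psat1 averaged 13.08 ± 0.06, 11.99 ± 0.07 and 13.17 (1.09, adjusted p = 8.31e-11). Cth, which makes cysteine, had 1.21 (adjusted p = 6.82e-08) and the arginine transporter Slc7a1 1.11 (adjusted p = 1.14e-08). Of 24 oxidative phosphorylation genes 2 were higher and 7 lower (37.5% called, also near the share of all genes). With median centring limma called 0 of these 24, and 3 were higher and 0 lower at an unadjusted p under 0.05. Limma called 0 higher without DAPT replicate 2 or PP2 replicate 1 (2 and 3 at an unadjusted p under 0.05), and 1 higher without DAPT replicate 1 or PP2 replicate 2 or with no intensity trend.

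**Figure D4:**
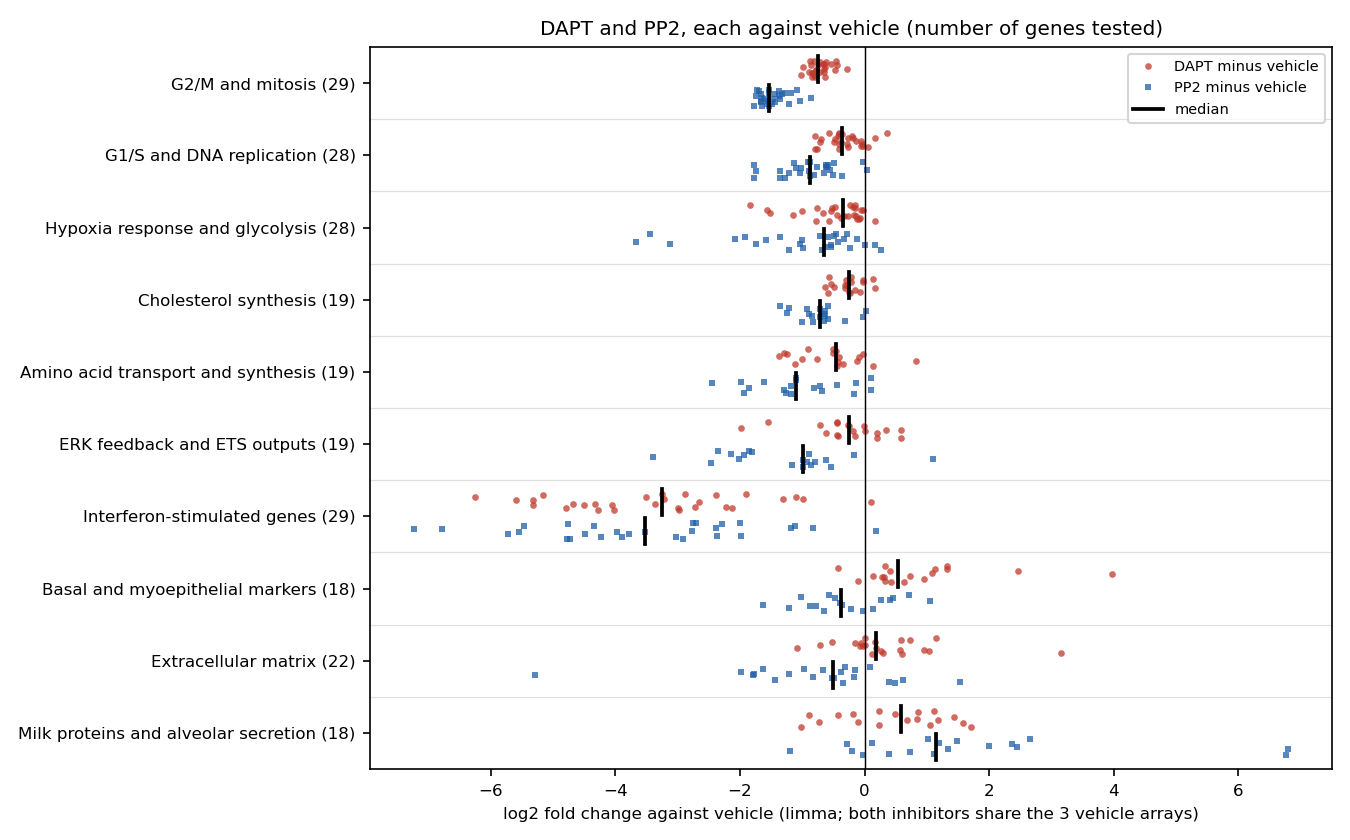
Log2 fold change of each gene against vehicle (x axis, limma) for 10 gene groups, with DAPT (red circles) above PP2 (blue squares) and black bars at the medians; both use the same 3 vehicle arrays. For G2/M genes the medians were −0.75 under DAPT and −1.53 under PP2, and for interferon-stimulated genes −3.24 and −3.52.

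Interferon-stimulated genes were far below vehicle under both inhibitors. Of 29 tested, 28 were lower than vehicle under each, with medians of −3.24 under DAPT and −3.52 under PP2. Between DAPT and PP2, 7 were higher, 4 were lower and 18 did not pass, with a median of −0.07, which was 0.01 with median centring. That made 37.9% called, against 39.7% of all genes tested, and log2 fold changes of members ran from −1.24 to 1.90. Of the 29 genes 6 were dim in both treatments, which limits what their differences can show. Bst2, a protein that tethers viruses to the membrane, had 9.33, 9.52 and 9.31 under DAPT, against 10.71, 10.44 and 10.73 under PP2 and 12.65, 12.83 and 12.41 in vehicle (log2 fold change −1.24, SE 0.10, adjusted p = 6.52e-08). Oas1a, a sensor of double-stranded RNA, went the other way, with 9.50, 9.52 and 9.33 under DAPT, against 8.40, 8.11 and 8.12 under PP2 and 12.52, 12.59 and 12.23 in vehicle (1.24, SE 0.11, adjusted p = 8.88e-08). In both cases vehicle was the highest group by a wide margin. Of 12 genes of MHC class I and antigen processing 6 were lower and 0 higher, but 1 was lower with median centring, and 2 or 3 without DAPT replicate 1, DAPT replicate 3 or PP2 replicate 3.

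Secreted defence proteins were mostly lower under DAPT. Of 12 tested 8 were lower and 1 was higher (median −0.91, and −0.48 where 4 dim members were held at their bound). The median was −0.52 with a pseudocount of 64 signal units and −0.48 with no filter on dim genes, and without PP2 replicate 1 there were 6 lower and 2 higher. There were 2 higher also with that pseudocount, quantile normalization, the mean over all probe sets of a gene or no intensity trend. Besides Hp, Slpi, a protease inhibitor of mucosal fluids, averaged 11.53 ± 0.13 under DAPT, 12.70 ± 0.06 under PP2 and 11.73 in vehicle (log2 fold change −1.17, adjusted p = 5.03e-08), and Saa1, an acute phase protein, 6.81 ± 0.32, 8.15 ± 0.06 and 6.84 (−1.34, adjusted p = 0.000186). DAPT was near vehicle for both. Defb1, a β-defensin, was the exception, with 11.68 ± 0.04 under DAPT, 10.47 ± 0.07 under PP2 and 9.88 in vehicle (1.21, adjusted p = 5.65e-07). Of 24 chemokines and cytokines 6 were higher and 6 lower. Il33, an alarmin of epithelial cells, had 8.72, 8.84 and 8.81 under DAPT, against 6.24, 6.10 and 6.39 under PP2 and 4.86, 5.72 and 4.51 in vehicle (2.55, SE 0.33, adjusted p = 1.14e-05). Tnf had −1.51 (adjusted p = 0.000602) and the chemokine Cx3cl1 1.09 (adjusted p = 8.14e-07). Of 5 macrophage markers tested limma called 0 higher, also at an unadjusted p under 0.05, and 2 lower, and 3 did not pass. Cd14 had −0.41 (adjusted p = 7.35e-06) and Laptm5 −0.73 (adjusted p = 0.0212). Laptm5 did not pass without DAPT replicate 2, PP2 replicate 1 or PP2 replicate 2 (adjusted p = 0.0578 to 0.1). Csf1r, which did not pass, had 0.30. The summed signal of the 16 macrophage markers on the array was 9185 to 9443 under DAPT, 12059 to 12584 under PP2 and 11577 to 12754 in vehicle, most of it from Cd14 (13.09 ± 0.02, 13.50 ± 0.02 and 13.48), while C1qa, Tyrobp and Ptprc were below the median on all of these arrays. The part of such cells in these results was not tested.

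Of 14 members of the BCL2 family 4 were higher and 6 lower, but 1 and 4 without PP2 replicate 1, and 2 and 5 without DAPT replicate 2, DAPT replicate 3 or PP2 replicate 2. The members named next passed in all of these. Bmf, a BH3-only protein that answers to loss of anchorage, had 8.04, 7.92 and 8.04 under DAPT, against 9.86, 9.81 and 9.93 under PP2 and 7.73, 7.67 and 7.17 in vehicle (log2 fold change −1.86, SE 0.15, adjusted p = 5.08e-08). Bcl2l11, the BH3-only protein Bim that ERK keeps low, had 10.27, 10.34 and 10.31 under DAPT, against 11.07, 11.07 and 11.09 under PP2 and 10.31, 10.33 and 10.26 in vehicle (−0.77, SE 0.06, adjusted p = 2.77e-08). Bik averaged 7.00 ± 0.05 under DAPT, 8.14 ± 0.18 under PP2 and 7.00 in vehicle (−1.14, adjusted p = 0.00028). For these 3 promoters of apoptosis PP2 stood above vehicle. Under DAPT, Bmf was above vehicle as well, by 0.48 (adjusted p = 0.0214), and Bcl2l11 and Bik did not pass against vehicle.

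Of 19 TGF-β and BMP outputs 2 were higher and 9 were lower, and 1 was higher with the mean over all probe sets of a gene. Inhbb, a subunit of activin, had 10.49, 10.41 and 10.53 under DAPT, against 12.35, 12.50 and 12.44 under PP2 and 12.27, 12.09 and 12.28 in vehicle (log2 fold change −1.95, SE 0.07, adjusted p = 5.12e-12). DAPT arrays lay below both other groups. Smad6, an inhibitor of BMP signalling, averaged 7.46 ± 0.06 under DAPT, 8.53 ± 0.12 under PP2 and 6.15 in vehicle (−1.07, adjusted p = 0.000111). Of 23 p53 targets 13 were higher and 1 lower, with a median of 0.22 (0.14, and 2 lower, with the mean over all probe sets of a gene). Among the larger were Sesn1, a stress-induced sestrin that is also a FOXO target (1.32, adjusted p = 0.000252), and Ddit4, an inhibitor of mTORC1 (0.83, adjusted p = 3.23e-10).

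Tumour-initiating and stem cell markers did not share a direction, with 7 of 15 higher and 4 lower. Without DAPT replicate 1 or 2 there were 6 higher. Aldh1a1 was called higher, but not without DAPT replicate 1 or 2 (adjusted p = 0.0624 and 0.059). Bcl11b, a transcription factor of basal stem cells, had 10.11, 10.44 and 10.29 under DAPT, against 8.56, 8.41 and 8.02 under PP2 and 9.28, 9.17 and 9.02 in vehicle (log2 fold change 1.95, SE 0.12, adjusted p = 2.11e-09). Procr, the protein C receptor, was at least 1.64-fold higher and dim under PP2 (adjusted p = 3.86e-06). Prom1 was higher and Kit and Aldh1a3 lower, as described with the luminal markers. Of 12 EMT genes and cadherins 4 were higher and 1, the tight junction protein Ocln (−0.21, adjusted p = 0.0256), was lower. That made 41.7% called, near the 39.7% of all genes tested. The call of Ocln was lost with median centring and without DAPT replicate 1 or 3 or PP2 replicate 1 or 2. N-cadherin, Cdh2, averaged 10.28 ± 0.17 under DAPT, 8.44 ± 0.13 under PP2 and 9.51 in vehicle (1.84, adjusted p = 1.72e-09). Of 18 WNT pathway outputs 4 were higher and 6 lower (3 lower with median centring), led by the ligand Wnt5b at 9.91 ± 0.08, 11.43 ± 0.06 and 9.88 (−1.52, adjusted p = 3.12e-09; SD, n = 3 each).

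**Figure D5:**
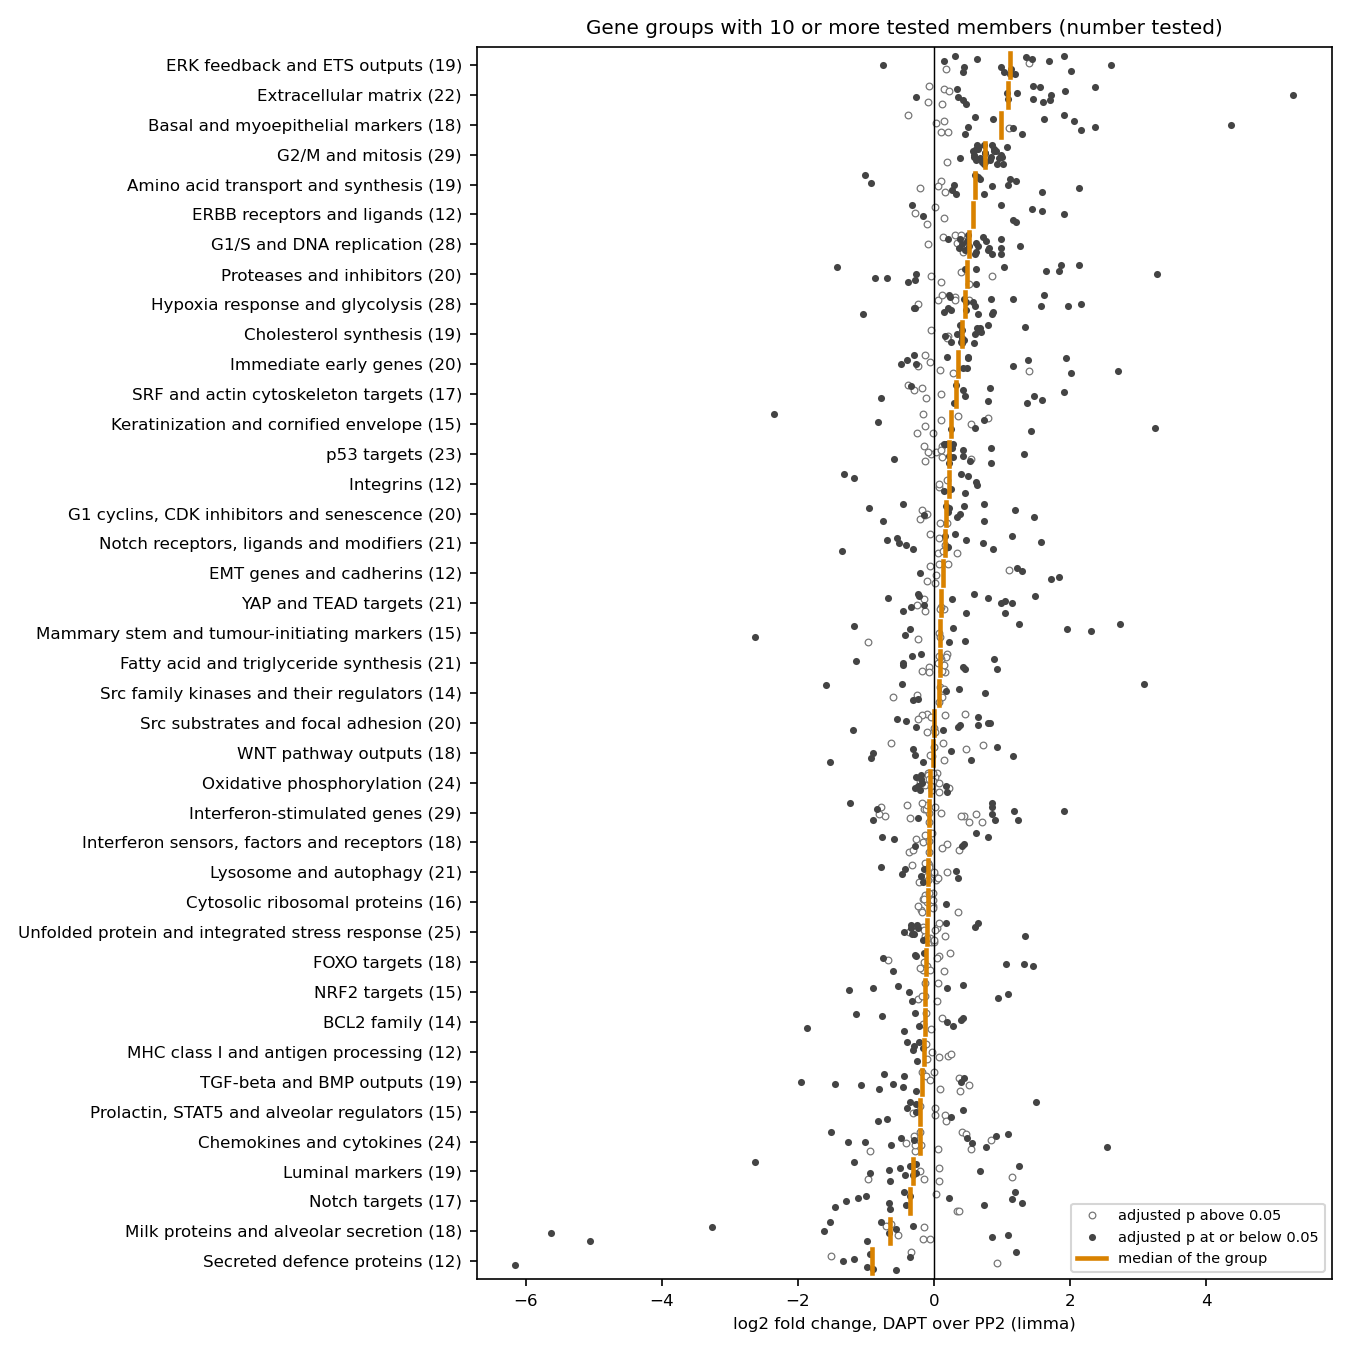
Log2 fold change of DAPT over PP2 (x axis, limma) of every tested member of the gene groups with 10 or more tested members, ordered by their medians (orange bars); filled points passed an adjusted p of 0.05 and open points did not. ERK outputs (median 1.12), matrix genes (1.08) and basal markers (0.98) lie at the top, Notch targets (−0.35), milk genes (−0.65) and secreted defence proteins (−0.91) at the bottom.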

How the data were processed

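Labelled RNA from 15 mammosphere samples was hybridised to Affymetrix Mouse430_2 arrays, 1 array per sample, and 5 groups of 3 were taken from the titles. The deposited values are linear signal intensities, made by the authors with Affymetrix Expression Console and MAS5 per the submitters' processing notes, and no versions are given in those notes. On every array their mean after trimming 2% at each end was 500, so a shift of many genes one way can be hidden. Values were taken to log2 with no pseudocount.

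Each gene was represented by the probe set with the highest mean among those naming exactly 1 gene. limma 3.58.1 (R 4.3.3) was fitted with 1 coefficient per group over all 15 arrays and an intensity trend in the variance. DAPT minus PP2 was tested two-sided. On simulated data the fit recovered 93% of 2-fold changes and 55% of changes of 0.5 (log2), and called 9 of 11265 unchanged genes. The simulation had independent noise and only 100 changed genes of each size among 11465. In the real contrast 4548 genes were called, so these rates do not carry over directly. The number of arrays limits the precision.

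Genes were named by rule: the 12 largest rises and falls with groups apart, all tested members of the Notch, γ-secretase and Src family lists, and at most 5 called members of each other list by size of change. Members and lists were chosen with earlier results of these data known. Alternatives covered scaling, the filter, the pseudocount, the probe set chosen, the arrays fitted, the variance trend, a replicate block and leaving out each array.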

Additional observations from a re-analysis of the deposited data

How the results depend on the processing

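Of 4548 genes called, 3337 were still called in the same direction with arrays centred on their medians, where 1050 genes were lower instead of 2057. At least 2-fold higher were 187 genes with a pseudocount of 64 signal units, instead of 352, since a pseudocount shrinks the change of dim genes. Averaging all probe sets of a gene turned the direction of Adam10 (−0.13), Cox6c (0.14), Ptpra (−0.27), Rps6 (−0.0071) and Sox9 (0.12). Leaving out each array in turn gave 3732 to 4156 called genes, 2057 to 2265 higher, 1655 to 1891 lower, 342 to 375 at least 2-fold higher and 271 to 299 at least 2-fold lower. The other settings for these counts stayed within 1.5 times of the values reported. With the replicate number as a replicate block 4367 genes were called, and no named gene changed its call. Deviations of same-numbered DAPT and PP2 arrays correlated at 0.033, −0.114 and 0.014, so the numbers were not taken to pair the samples. Dim signals limit folds, which are given as bounds, and array medians lay between 75.8 and 90.8 signal units in DAPT and PP2 arrays.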

Other observations

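Several gene groups not described above held single members with large differences. Among 15 genes of keratinization 5 were higher and 2 lower under DAPT. Krt6a, a keratin of activated epidermis, averaged 10.50 ± 0.08 under DAPT, 9.08 ± 0.10 under PP2 and 10.58 in vehicle (log2 fold change 1.43, adjusted p = 2.23e-11). Sprr1a, a protein of the cornified envelope, averaged 7.90 ± 0.06, 10.26 ± 0.16 and 8.42 in the same order (−2.36, adjusted p = 6.17e-09; SD, n = 3 each). Among 5 genes of motile cilia, Foxj1, the factor that sets up the ciliary programme, averaged 8.96 ± 0.25 under DAPT, 7.34 ± 0.13 under PP2 and 7.57 in vehicle (1.62, adjusted p = 1.16e-08).

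Of 15 NRF2 targets 4 were higher and 5 lower, and 2 were higher without PP2 replicate 1. Gsta3, a glutathione transferase, averaged 10.68 ± 0.14 under DAPT, 9.59 ± 0.04 under PP2 and 6.62 in vehicle (1.09, adjusted p = 3.06e-07), so that vehicle was far below both. Of 18 FOXO targets 3 were higher and 5 lower, or 2 lower with median centring and 3 lower without DAPT replicate 1 or PP2 replicate 2. Fbxo32, a ubiquitin ligase of muscle wasting, averaged 13.08 ± 0.01 under DAPT, 12.02 ± 0.02 under PP2 and 11.73 in vehicle (1.05, adjusted p = 8.31e-11). Of 25 stress genes (unfolded protein, integrated stress response) 4 were higher and 8 lower, but 1 was lower with median centring. Of 21 lysosome and autophagy genes 2 were higher and 6 lower, 3 with median centring and 1 with the mean over all probe sets of a gene, led by the protease Ctsh (−0.78, adjusted p = 2.87e-09). The shares called were 44.4% of FOXO targets and 38.1% of lysosome and autophagy genes, near the 39.7% of all genes tested.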
